A study of Mus musculus with 2 samples.

Results

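The unfolded protein response and the ATF4 stress response were described here through 40 genes, taken by their symbols, in kidney messenger RNA of 2 mouse libraries with acute kidney injury (AKI). The 40 genes comprise 4 stress sensors, 5 transcription factors, 4 feedback and effector genes, 6 enzymes of serine, glycine, asparagine and one-carbon metabolism, 6 aminoacyl-tRNA synthetases, 11 chaperones and folding enzymes of the endoplasmic reticulum (ER) and 4 genes of ER-associated degradation. Of the 19829 genes listed in the table, 14997 passed the filter on low levels (a level of 1 reached in either library, worth 42.4 reads of WT+AKI or 33.1 of TG+AKI), and all 40 members were listed and passed it.

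WT+AKI was 1 library from control littermates without the transgene (WT), and TG+AKI was 1 library from *Inmt* transgenic mice (TG) that overexpress *Inmt*, an indolethylamine N-methyltransferase, in proximal tubules. Per the study's methods, both groups were male C57BL/6 mice given the calcineurin inhibitor voclosporin (30 mg/kg each day over 2 weeks, begun at the age of 8 and ended at 10 weeks) and subjected to 30 min of bilateral renal ischemia followed by reperfusion at 14 weeks. By these methods both groups shared the drug and the injury, whereas the treatment field of both samples reads no treatment. Neither a solvent-treated nor an uninjured kidney was analysed here. Collection after reperfusion is stated as 24 h in one place and as 48 h in another. RNA came from left kidney tissue, and whether a library held 1 mouse or several is not given in the sources used here. The title of the transgenic sample also uses the words conditional knockout, whereas its library name and the series text call it transgenic, and *Inmt* itself stood at 10.4 (WT+AKI) and 403 (TG+AKI), a ratio of 38.5 (95% interval 35.1 to 42.5). Levels throughout are reads per 1000000 of the scaled library, the unit of the deposited table. WT+AKI held 38542764 reads and TG+AKI 36427421 reads, so that 1 read was worth 0.0236 and 0.0302.

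Secreted and membrane proteins fold in the ER with the help of chaperones. When unfolded proteins accumulate there, the sensors IRE1, PERK and ATF6 raise the capacity for folding and for degradation, an answer known as the unfolded protein response. PERK, and GCN2 in cells short of amino acids, phosphorylate the initiation factor eIF2, which slows most translation but favors that of ATF4, a transcription factor of genes for amino acid supply, redox balance and, when stress lasts, cell death. Both branches have been described in injured kidney tubules and linked to survival as well as to death of tubular cells. Splicing of *Xbp1*, cleavage of ATF6 and translation of ATF4 are not visible in messenger RNA levels per gene.

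With 1 library per group no test of the conditions was possible. A gene was called higher or lower where its levels differed at least 2-fold on the log2(value + 0.1) scale, and each ratio of TG+AKI to WT+AKI carries a 95% Clopper-Pearson interval that covers counting error of the reads and compares these libraries, not the conditions. A single member, *Shmt2*, was called higher (1 of 40, 2.5%), where 7.02% of all genes tested were called higher. The members *Ppp1r15a*, *Ddit4*, *Cebpb*, *Chac1* and *Psat1* were called lower (5 of 40, 12.5%), where 10.5% of all genes were called lower. As a whole the members were thus close to the background, and their median log2 fold change was 0.01 against -0.02 for all genes tested. The counting interval lay above 1 for 17 members and below 1 for 17, where it lay above 1 for 36.3% and below 1 for 38.7% of all genes. The members differed by role instead, since the 4 feedback and effector genes had a median log2 fold change of -1.46 and the 4 degradation genes one of 0.52.

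**Figure D1:**
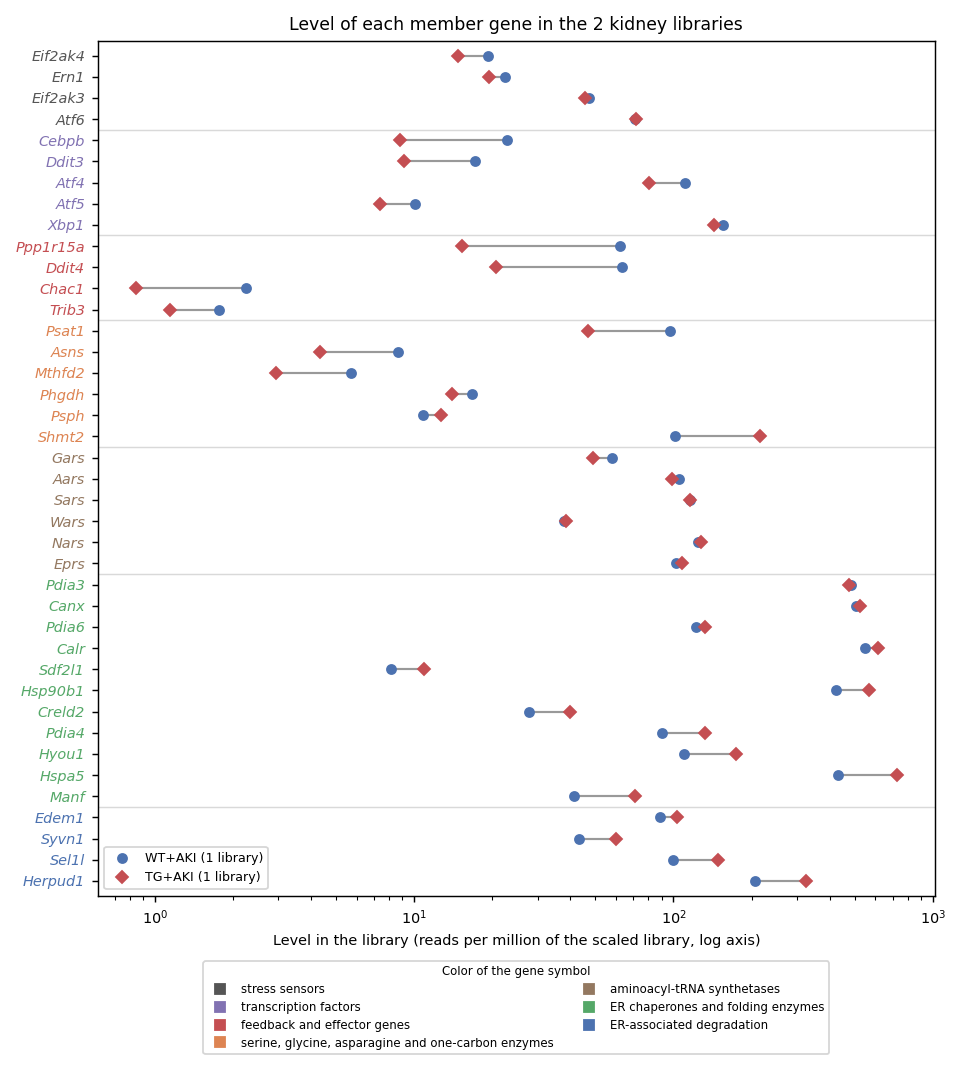
Level of each member in the WT+AKI library (circles) and the TG+AKI library (diamonds), 1 library each, in reads per 1000000 of the scaled library on a log axis, with genes grouped by role and joined by a line. Levels ran from 0.85 for *Chac1* in TG+AKI to 727 for *Hspa5* in TG+AKI, and in the feedback and effector group all 4 diamonds lay to the left of the circles.

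The scaling of the libraries bears on every small difference. The deposited columns were scaled by trimmed mean of M values and summed to 909104 in WT+AKI and 1099984 in TG+AKI. With both columns set to equal totals, the log2 fold change of a gene far above the pseudocount moved by -0.27, the median of all genes moved to -0.30, and the share of called genes that were higher moved from 40.02% to 22.7%. Under that scaling 0 members were called higher and 8 lower, with *Ddit3*, *Mthfd2* and *Asns* added to those 5.

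Tubule markers differed far more than the members did, and their part in the results below was not tested. For the marker counts that follow, 7.02% of all genes tested were called higher and 10.5% lower. All 12 proximal tubule markers examined were called higher in TG+AKI, with a summed level of 3877 (WT+AKI) and 15887 (TG+AKI). All 12 markers of injured tubule were called lower, with sums of 14014 and 936. Of 8 macrophage markers 7 were called lower (sums 192 and 81.2), and of 7 fibroblast and mural markers 4 were called lower (532 and 248). Thick ascending limb markers were called higher for 3 of 6 (1981 and 3313) and distal and collecting duct markers for 3 of 9 (544 and 1159). None of 6 podocyte markers (446 and 473) and none of 7 endothelial markers (452 and 428) was called either way. Plasma cells are rich in ER chaperones. Of the 9 plasma and B cell markers 8 were listed, with 2526 and 606 reads (sums 59.6 and 18.3), and the 3 past the filter were called lower, *Sdc1* with 2143 and 472 reads, *Mzb1* with 168 and 48 and *Irf4* with 138 and 12. The other listed markers were below the filter, *Jchain* with 15 and 12 reads and *Cd79a* with 20 and 16 among them. Of 7 neutrophil markers 3 were listed and both past the filter were called lower (7.38 and 1.42), and of 7 T cell markers 6 were listed and 0 of the 1 past the filter was called (3.11 and 3.77). In whole kidney RNA, fewer cells of a type and less RNA per cell cannot be told apart.

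The promoters of the members were searched for the response elements of the pathway, and the sites are shown because they are the classical marks of its branches. RefSeq promoters of build GRCm38.p6, taken from 250 bases before to 50 bases after the start, were at hand for 35 of the 40 members (*Atf6*, *Nars*, *Wars*, *Hyou1* and *Manf* had none). The ER stress response element, CCAAT and CCACG 9 bases apart, is the classical binding site of ATF6 together with NF-Y. It was present on either strand in 7 of 35 members (20%), in 0.137% of the 27025 genes with a promoter and in 0.193% of the 11404 of these that were tested. Element II, ATTGG and CCACG 1 base apart, was found in *Herpud1* (2.86% of members, 0.0444% of all genes with a promoter, 0.0789% of those tested). These elements were first described in promoters of some of these very genes, so the shares are no independent observation. The sites are written 5′ to 3′ on the strand on which they read as the element, with the fixed letters in capitals and 5 bases on each side.
Hspa5, chr2:34772020-34772048, plus strand: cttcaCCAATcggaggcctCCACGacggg
Hsp90b1, chr10:86705633-86705661, minus strand: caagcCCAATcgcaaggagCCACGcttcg
Hsp90b1, chr10:86705528-86705556, plus strand: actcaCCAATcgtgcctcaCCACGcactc
Creld2, chr15:88819515-88819543, minus strand: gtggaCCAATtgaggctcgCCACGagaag
Calr, chr8:84847070-84847098, plus strand: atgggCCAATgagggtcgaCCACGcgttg
Canx, chr11:50325795-50325823, minus strand: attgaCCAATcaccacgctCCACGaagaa
Pdia6, chr12:17266486-17266514, plus strand: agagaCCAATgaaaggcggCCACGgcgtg
Herpud1, chr8:94386372-94386392, plus strand: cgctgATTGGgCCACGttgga
Syvn1, chr19:6046527-6046555, plus strand: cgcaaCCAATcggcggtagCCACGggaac

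Of the 7 promoters with an ER stress response element 6 belonged to chaperones and folding enzymes and 1 to *Syvn1*. *Hsp90b1* held 2 such sites, on opposite strands. The C/EBP-ATF response element core, TGATG and AA 1 base apart, is bound by ATF4 with a C/EBP partner. It was present in 6 of 35 members (17.1%), namely in *Trib3*, *Chac1*, *Asns*, *Aars*, *Gars* and *Herpud1*, and its sites are printed in the same way. The share was 4.51% of all genes with a promoter and 2.74% of those tested. The site of *Trib3* and the second site of *Aars* lay after the RefSeq start.
Trib3, chr2:152344034-152344051, plus strand: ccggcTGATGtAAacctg
Chac1, chr2:119351044-119351061, minus strand: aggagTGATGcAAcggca
Asns, chr6:7693220-7693237, minus strand: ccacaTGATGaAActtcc
Aars, chr8:111033725-111033742, minus strand: tcggcTGATGcAAtgctc
Aars, chr8:111033846-111033863, minus strand: cgctcTGATGaAAagtga
Gars, chr6:55037966-55037983, minus strand: gtgcaTGATGaAAtagcg
Herpud1, chr8:94386312-94386329, minus strand: cgggcTGATGcAAcccgc

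The XBP1 element core, TGACG followed directly by TGG, was in 0 of 35 members' windows, in 0.714% of all genes' promoters and in 1.03% of those of tested genes. Its last 5 letters are the reverse complement of CCACG, so that it can share bases with the ER stress response elements. A match says that the letters are there, and a missing match says only that they are not in this window. The promoters shown at length are *Chac1* for a gene called lower and *Herpud1* for one with a higher level and both kinds of site, on the strand of the gene with the motifs in capitals. The C/EBP-ATF core reads there as its reverse complement.
Chac1, chr2:119350992-119351228, plus strand: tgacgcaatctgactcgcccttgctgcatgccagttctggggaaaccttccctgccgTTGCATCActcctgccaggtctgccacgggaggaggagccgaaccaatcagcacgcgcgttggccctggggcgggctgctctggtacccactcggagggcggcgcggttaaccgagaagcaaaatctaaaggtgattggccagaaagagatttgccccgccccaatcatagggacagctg
Herpud1, chr8:94386179-94386428, plus strand: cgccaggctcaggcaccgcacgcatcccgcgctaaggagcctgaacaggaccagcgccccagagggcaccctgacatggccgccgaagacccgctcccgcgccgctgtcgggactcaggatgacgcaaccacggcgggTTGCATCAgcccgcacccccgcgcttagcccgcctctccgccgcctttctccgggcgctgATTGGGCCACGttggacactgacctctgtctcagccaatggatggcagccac

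All 7 members with an ER stress response element had a log2 fold change above 0 on the deposited scale, from 0.04 in *Canx* to 0.76 in *Hspa5* with a median of 0.42, whereas under equal totals *Canx*, *Calr* and *Pdia6* were below 0, and at a median ratio of 1 *Canx* and *Pdia6* were. Among the 28 members with a promoter but without the element, the median was -0.23 and 8 were above 0. Element and role cannot be told apart in this contrast, since 6 of the 7 are chaperones and folding enzymes. The genes of that role with a promoter but without the element were *Pdia4* (0.55), *Sdf2l1* (0.42) and *Pdia3* (-0.02). Whether the element bears on the levels was not tested. Of the 6 members with the C/EBP-ATF core 5 were below 0 and *Herpud1* was above it, with a median of -0.41. Over all genes tested with a promoter, the 22 with an ER stress response element had a median of 0.30, and 11382 without it one of -0.01. The 313 genes with a C/EBP-ATF core had a median of -0.05 and were called lower in 15.3%, against 10.2% of the 11091 without it, and they were also called higher in 8.31% against 6.90%. The members are themselves among those genes.

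None of the 4 sensors was called, and the counting interval lay below 1 for 2 of them and held 1 for the others. *Atf6*, the sensor that is cleaved in the Golgi to a transcription factor, stood at 70.9 (WT+AKI) and 71.8 (TG+AKI), with a ratio of 1.01 (0.959 to 1.07). *Eif2ak3*, which encodes PERK, stood at 47.4 and 45.6, with an interval that also held 1 (0.901 to 1.03). For *Ern1*, which encodes the *Xbp1*-splicing enzyme IRE1, the levels were 22.4 and 19.4, a ratio of 0.864 (0.781 to 0.956). The lowest ratio of the sensors was that of *Eif2ak4*, which encodes the amino acid sensor GCN2, with levels of 19.3 and 14.7 and a ratio of 0.762 (0.680 to 0.853). The direction of *Atf6* rests on the scaling, since its log2 fold change was 0.02 as deposited, -0.13 at a median ratio of 1 and -0.26 at equal totals.

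All 5 transcription factors had lower levels in TG+AKI under each of the 4 scalings. As deposited 1 of them was called lower (20%, against 10.5% of all genes tested). *Cebpb*, a C/EBP factor that is also a gene of the acute phase response, fell from 22.8 in WT+AKI to 8.79 in TG+AKI, 2.59-fold lower (2.27 to 2.97). *Ddit3*, which encodes the death-promoting factor CHOP, stood at 17.1 and 9.18 (726 and 304 reads), 1.87-fold lower (1.63 to 2.14) and short of a call as deposited. At equal totals and at a median ratio of 1 *Ddit3* was called lower, with log2 fold changes of -1.16 and -1.04. *Atf4*, the central factor of the stress response, stood at 110 and 80.4, a ratio of 0.728 (0.694 to 0.764). Its relative *Atf5* stood at 10.1 and 7.37, a ratio of 0.732 (0.622 to 0.859). *Xbp1*, the factor whose messenger RNA is the substrate of IRE1, stood at 155 and 143, the smallest difference of the group, with a ratio of 0.921 (0.887 to 0.956). The order of the ratios thus ran from *Cebpb* and *Ddit3*, whose intervals did not meet, through *Atf4* and *Atf5*, whose intervals overlapped, to *Xbp1*. One limit applies to *Cebpb*, since 20.7% of its exon bases overlap *Tmem189* on the opposite strand, and whether strand was used in counting is not given in the sources used here.

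The 4 feedback and effector genes held the 2 lowest ratios of the 40 members, with 3 of 4 called lower (75%, against 10.5% of all genes tested). *Ppp1r15a* encodes GADD34, which brings a phosphatase to eIF2 and so ends the block of translation, and it fell from 62.0 in WT+AKI to 15.3 in TG+AKI (2628 and 506 reads), 4.06-fold lower (3.69 to 4.47). *Ddit4* encodes REDD1, an inhibitor of the growth kinase complex mTORC1, and it fell from 63.2 to 20.7, 3.06-fold lower (2.81 to 3.33). The glutathione-degrading enzyme gene *Chac1* fell from 2.24 to 0.85 on 95 and 28 reads, 2.65-fold lower (1.72 to 4.20). *Trib3*, a pseudokinase gene induced by ATF4 and CHOP, was the fourth and was not called, at 1.77 and 1.15 on 75 and 38 reads, 1.54-fold lower (1.03 to 2.34). Depth limits these last 2 genes, and with a pseudocount of 1 in place of 0.1 *Chac1* was no longer called. On the log2 scale with the pseudocount, *Ppp1r15a* lay at percentile 3.38, *Ddit4* at 5.15, *Cebpb* at 6.62 and *Chac1* at 7.07 of all genes tested.

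**Figure D2:**
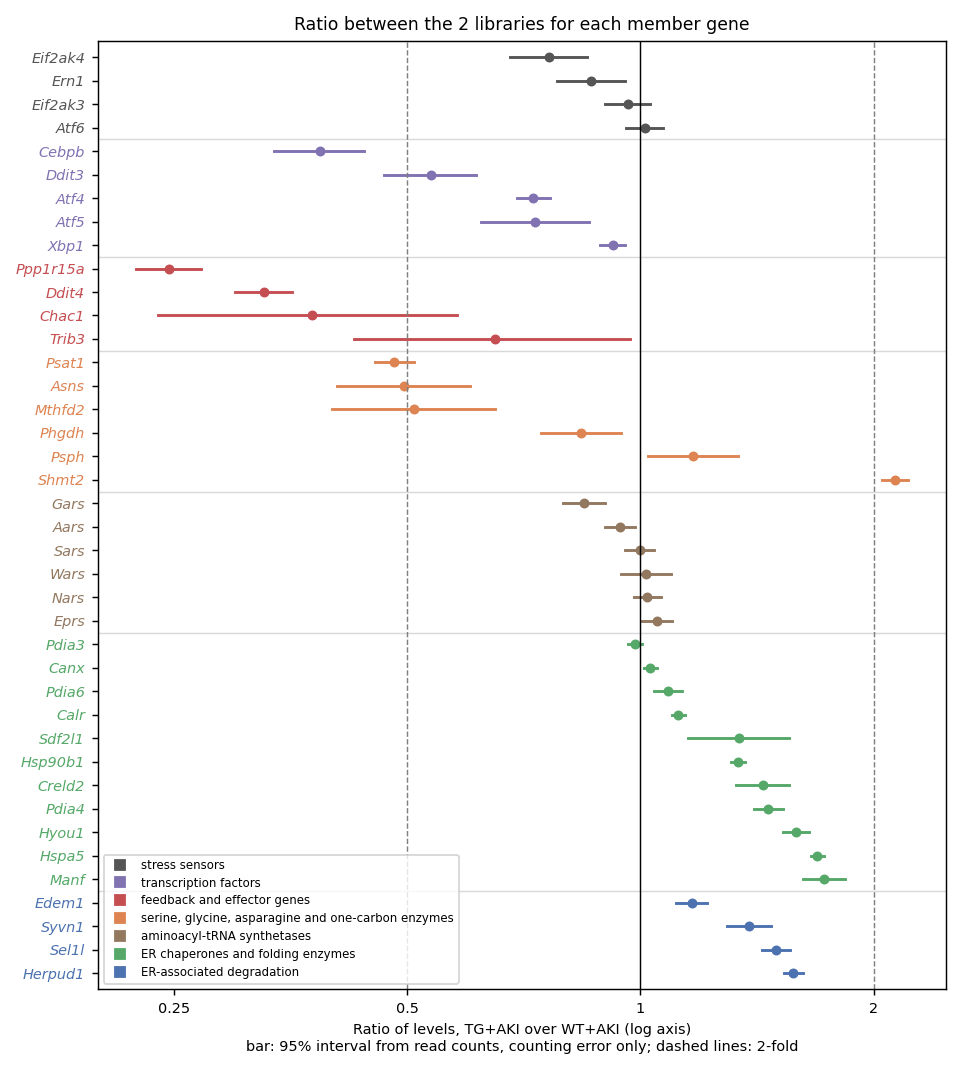
Ratio of the level in TG+AKI to that in WT+AKI for each member on a log axis, with 95% intervals from the reads of 1 library per group (counting error only), a solid line at 1 and dashed lines at 2-fold. The feedback and effector genes lay between 0.246 and 0.649 and the ER-associated degradation genes between 1.17 and 1.58 on the deposited scale, while at equal totals *Edem1*, *Calr*, *Canx*, *Pdia6*, *Psph*, *Atf6*, *Nars*, *Wars* and *Eprs* lay below 1.

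The 6 metabolic enzymes split, with 1 called higher (16.7%, against 7.02% of all genes tested) and 1 called lower (16.7%, against 10.5%). *Mthfd2* and *Asns* were just short of a call as deposited, and both were called lower at equal totals and at a median ratio of 1. *Shmt2*, the mitochondrial serine hydroxymethyltransferase that passes the one-carbon unit of serine to folate, rose from 101 to 216 (4290 and 7142 reads), a ratio of 2.13 (2.05 to 2.21). *Mthfd2*, the next mitochondrial enzyme of the same route, stood at 5.73 and 2.93, 1.96-fold lower (1.54 to 2.503), and was short of a call. *Psat1*, the transaminase of serine synthesis, fell from 96.9 to 46.7, 2.08-fold lower (1.96 to 2.20). *Asns*, asparagine synthetase, stood at 8.70 and 4.32, 2.02-fold lower (1.66 to 2.46). By the call rule, which adds the pseudocount, *Psat1* lay just inside the threshold at -1.05 and *Asns* just outside it at -0.99, so these 2 genes differ little. The other serine synthesis genes were close to even, with *Phgdh*, the first enzyme, at 16.7 and 13.95 (ratio 0.838, 0.743 to 0.943) and *Psph*, the last, at 10.9 and 12.7 (ratio 1.17, 1.02 to 1.34). *Psph* was below WT+AKI at equal totals, with a log2 fold change of -0.05. Reads of both may be shared with other genes, since 37.3% of the 100-base words of the *Phgdh* transcript and 21.6% of those of *Psph* occur in transcripts of other genes, for *Psph* those of *Cct6a*. The call of *Shmt2* was lost at a median ratio of 1 and at equal totals, and at equal totals its log2 fold change was 0.82.

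Scaling cancels when genes are compared within a library, and the pairs that follow were chosen after the values were seen. *Shmt2* had 17.7 reads for each read of *Mthfd2* in WT+AKI against 73.6 in TG+AKI, a 4.17-fold change of the ratio (95% interval 3.29 to 5.29, counting error only).

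All 6 aminoacyl-tRNA synthetase genes, whose products charge tRNAs with amino acids and which ATF4 is known to induce, had ratios between 0.846 and 1.05. *Sars*, for serine, stood at 116 and 115 (ratio 0.998, 0.956 to 1.04), *Nars*, for asparagine, at 125 and 127 (1.02, 0.981 to 1.06), and *Wars*, for tryptophan, at 37.8 and 38.4 (1.02, 0.943 to 1.09). The intervals of these 3 genes held 1. *Eprs*, for glutamate and proline, stood at 103 and 108 (1.05, 1.005 to 1.099). *Aars*, for alanine, stood at 105 and 98.7 (0.941, 0.8996 to 0.985), and *Gars*, for glycine, at 58.0 and 49.0 (0.846, 0.794 to 0.901). Under equal totals the log2 fold changes of *Sars*, *Nars*, *Wars* and *Eprs* were between -0.28 and -0.20. Of the *Aars* transcript 21.7% of the 100-base words are shared with *Exosc6*.

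Chaperones and folding enzymes had the higher level in TG+AKI in 10 of 11 genes as deposited and in 7 of 11 at equal totals, and none was called. The counting interval lay above 1 for 10 of 11. The largest ratio was that of *Manf*, a secreted ER stress protein, at 41.2 and 71.0, a ratio of 1.72 (1.62 to 1.84). *Hspa5*, which encodes BiP, the main ER chaperone and the protein that holds the sensors inactive, stood at 429 and 727 (18209 and 24064 reads), a ratio of 1.69 (1.66 to 1.72). These intervals overlapped, so the order of these 2 genes is not resolved. *Hyou1*, a nucleotide exchange factor of BiP, stood at 109 and 174, a ratio of 1.59 (1.53 to 1.65). *Pdia4*, a protein disulfide isomerase, stood at 90.6 and 132 (1.46, 1.40 to 1.53), and *Creld2*, an ER stress protein with disulfide isomerase activity, at 27.7 and 39.9 (1.44, 1.33 to 1.56). *Hsp90b1*, the ER member of the HSP90 family, stood at 424 and 567 (1.34, 1.31 to 1.36), and *Sdf2l1*, a partner of BiP with a low level, at 8.16 and 10.9 (1.34, 1.15 to 1.56).

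The lectin chaperones and their partner formed the even end of the group. *Calr*, calreticulin, stood at 547 and 612 (1.12, 1.098 to 1.14), *Canx*, calnexin, at 507 and 522 (1.03, 1.01 to 1.05), and *Pdia3*, the isomerase that works with both, at 485 and 477 (0.983, 0.963 to 1.003). *Pdia6*, a further isomerase, stood at 122 and 132 (1.09, 1.04 to 1.13). At equal totals the log2 fold changes of *Calr*, *Pdia6*, *Canx* and *Pdia3* were -0.11, -0.16, -0.23 and -0.30, whereas those of *Manf*, *Hspa5* and *Hyou1* were 0.51, 0.48 and 0.39.

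The 4 genes of ER-associated degradation, which returns misfolded proteins to the cytosol for destruction, all had higher levels in TG+AKI as deposited, with *Edem1* reversed at equal totals, and none was called. *Herpud1*, a membrane scaffold of the degradation complex, stood at 207 and 326 (8762 and 10785 reads), a ratio of 1.58 (1.53 to 1.62). *Sel1l*, the adaptor of the ubiquitin ligase, stood at 99.3 and 149 (1.497, 1.44 to 1.56), and *Syvn1*, the ligase itself, at 43.4 and 59.9 (1.38, 1.30 to 1.47). *Edem1*, which directs misfolded glycoproteins to the complex, stood at 88.4 and 103 (1.17, 1.11 to 1.22). At equal totals the log2 fold changes of *Herpud1*, *Sel1l* and *Syvn1* were 0.38, 0.31 and 0.19, and that of *Edem1* was -0.05.

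Further ratios between genes were also read within libraries. These pairs too were chosen after the values were seen, so their direction was set by the choice and is no separate observation. *Hspa5* had 25.1 reads for each read of *Ddit3* in WT+AKI against 79.2 in TG+AKI, a 3.16-fold change (2.76 to 3.61). Its ratio to *Atf4* went from 3.89 to 9.04, a 2.32-fold change (2.21 to 2.45), and that to *Ppp1r15a* from 6.93 to 47.6, a 6.86-fold change (6.23 to 7.56). *Herpud1* over *Ddit3* changed 2.94-fold (2.56 to 3.37) and *Manf* over *Atf4* 2.37-fold (2.19 to 2.56). Summed over members, the 15 folding and degradation genes had 24.99 reads for each read of the 4 feedback and effector genes in WT+AKI against 108 in TG+AKI, a 4.33-fold change (4.07 to 4.60). *Ppp1r15b*, the constitutive partner of the same phosphatase and not a member, had 1.57 reads per read of *Ppp1r15a* in WT+AKI against 5.98 in TG+AKI, a 3.81-fold change (3.43 to 4.24).

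**Figure D3:**
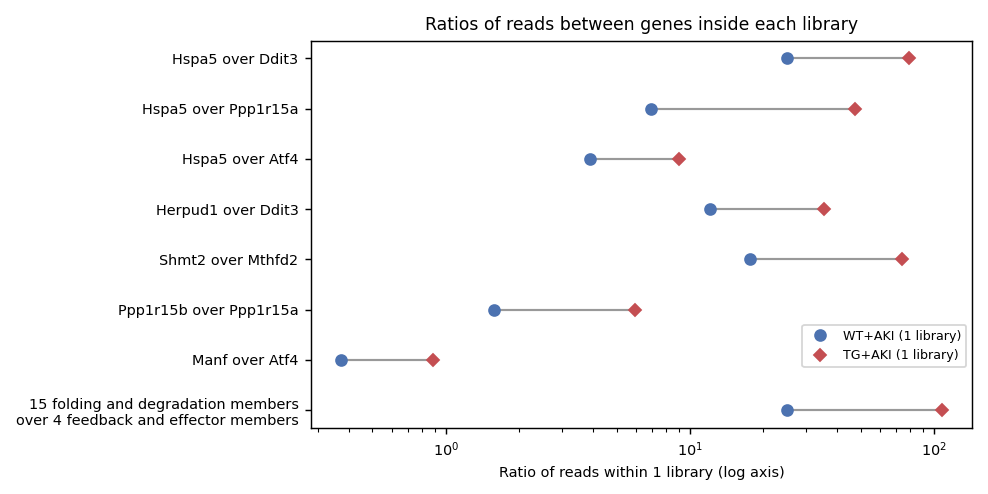
Reads of the first gene or group divided by reads of the second inside 1 library, on a log axis, for WT+AKI (circles) and TG+AKI (diamonds). Each of the 8 ratios was higher in the TG+AKI library, by between 2.32-fold and 6.86-fold. The pairs were chosen after the values were seen, so their shared direction was set by the choice.

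Levels of different genes were compared per kilobase of the longest protein-coding transcript of GENCODE M21, which was found for all 40 members. *Calr* led in both libraries, with a level per kilobase of 250 (WT+AKI) and 280 (TG+AKI). *Pdia3* (175), *Hsp90b1* (150), *Canx* (118) and *Hspa5* (117) followed in WT+AKI. In TG+AKI the next were *Hsp90b1* (201), *Hspa5* (198), *Pdia3* (172) and *Herpud1* (167), so that *Hspa5* moved from rank 5 to rank 3. *Ppp1r15a* went from rank 18 to rank 33 and *Ddit4* from rank 14 to rank 25. The lowest levels per kilobase were those of *Trib3* (0.873 and 0.566) and *Chac1* (1.37 and 0.516). *Atf4* stood at 64.0 and 46.6 per kilobase and *Ddit3* at 19.2 and 10.3. Of the summed level of the 40 genes, chaperones and folding enzymes took 60.5% in WT+AKI and 64.5% in TG+AKI, degradation genes 9.48% and 11.9%, synthetases 11.8% and 9.99%, and feedback and effector genes 2.80% and 0.706%.

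Beyond the members, 204 further genes of the same pathways were read in 9 lists, of which 199 were listed and 197 passed the filter (*Fgf21*, *Pycr1*, *Sds*, *Pdia2* and *Ern2* were not analysed here). Together 7 were called higher (3.55%, against 7.02% of all genes tested) and 19 lower (9.64%, against 10.5%), with a median log2 fold change of -0.02. Of these 19, 13 were among 27 other ATF4 target genes (48.1%), whose median was -0.97 and which also held 2 genes called higher. *Slc7a11*, the cystine importer, fell from 4.06 to 0.18 on 172 and 6 reads, 22.4-fold lower (10.1 to 61.9), and does not pass a filter of 10. *Atf3*, a stress factor that is also an immediate early gene, fell from 27.2 to 1.81 (1153 and 60 reads), 15.01-fold lower (11.6 to 19.8). *Gdf15*, a secreted stress hormone, fell from 81.9 to 12.3, 6.67-fold lower (6.01 to 7.404). The genes called higher against this direction, named after their values were seen, were *Adm2*, a peptide hormone gene, with 6 and 39 reads (ratio 8.32, 3.498 to 24.05), and *Ndrg1*, which hypoxia also induces, at 1491 and 3377 (ratio 2.26, 2.24 to 2.29). The call of *Adm2* was lost with pseudocount 1 and with a filter of 10, and that of *Ndrg1* at equal totals.

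The list of other folate and serine enzymes had mostly higher levels in TG+AKI. Of 17 past the filter 4 were called higher (23.5%, against 7.02% of all genes tested) and 0 lower, with a median log2 fold change of 0.81. The folate enzyme genes *Mthfd1l* and *Aldh1l2*, named after their values were seen, were filed under the other ATF4 targets. *Mthfd1l* was called lower (6.56 and 1.84, ratio 0.281, 0.209 to 0.372), and *Aldh1l2* had a ratio of 0.565 (0.428 to 0.740). The counts of the folate list thus depend on that filing. *Glyctk*, a kinase of serine breakdown, rose from 67.9 to 218 (ratio 3.21, 3.08 to 3.36), *Gnmt*, glycine N-methyltransferase, from 9.95 to 31.0 (3.12, 2.78 to 3.498), and *Cbs*, which joins serine to homocysteine, from 93.6 to 235 (2.51, 2.42 to 2.61). *Shmt2* had a higher level, as did 14 of the 17 enzymes of this list. *Mthfd2*, *Psat1* and *Asns* had lower levels, as did 21 of the 27 other ATF4 targets, while 6 of those targets were above 0. Whether either list bears on these members was not tested.

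The synthetase lists differed by compartment. Of 17 mitochondrial synthetase genes 16 had a log2 fold change above 0 as deposited and 13 at equal totals, with a median of 0.41 as deposited. The 1 gene called higher (5.88%, against 7.02% of all genes tested) was *Fars2* at 18.8 and 39.0 (ratio 2.07, 1.90 to 2.27). That call was lost at equal totals, where the median of the list was 0.14, and at a median ratio of 1. *Yars2* had a ratio of 1.66 (1.48 to 1.86) and *Cars2* one of 1.61 (1.45 to 1.796). Of 17 other cytosolic synthetase genes 13 were below 0, with a median of -0.23 and none called. Their largest differences were those of *Vars* at 45.3 and 29.2 (0.645, 0.596 to 0.697), *Farsb* (0.706, 0.660 to 0.756) and *Cars* (0.729, 0.659 to 0.806).

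Genes of the eIF2 switch had a median of -0.11 over 12 genes. The counting interval lay above 1 for 3 of these, below 1 for 6 and held 1 for 3. As deposited 4 of the 12 were above 0, and at equal totals 1 was. Of the 12 genes 1 was called, and it was lower (8.33%, against 10.5% of all genes tested). This gene was *Eif2ak2*, the kinase that senses double-stranded RNA and is itself an interferon-induced gene. *Eif2ak2* fell from 47.0 to 22.7, 2.07-fold lower (1.90 to 2.25). *Eif2s1*, the subunit that is phosphorylated, stood at 70.9 and 46.8 (0.659, 0.620 to 0.701), and *Eif2ak1*, the heme-regulated kinase, at 62.2 and 86.6 (1.39, 1.32 to 1.47). Among 18 other stress transducers and regulators the median was -0.12, and 1 was called lower (5.56%, against 10.5% of all genes tested). It was *Creb3l3*, an ER-bound transcription factor, which fell from 2.67 to 0.21 on 113 and 7 reads. *Creb3l3* was 12.6-fold lower (5.92 to 32.1) and does not pass a filter of 10. *Tmbim6*, an ER membrane inhibitor of cell death, stood at 1132 and 1975 (1.74, 1.72 to 1.77), and *Nfyc*, a subunit of NF-Y, at 38.4 and 61.8 (1.61, 1.505 to 1.72).

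Among the wider ER machinery, over 30 other folding genes the median was 0.04 and 17 were above 0 as deposited, 6 at equal totals. Of the 30, 3 were called lower (10%, against 10.5% of all genes tested). They were *Qsox1*, a secreted sulfhydryl oxidase, at 44.6 and 19.9 (2.24-fold lower, 2.05 to 2.45), *Cdnf*, a relative of *Manf*, at 1.74 and 0.75 (74 and 25 reads, 2.31-fold lower, 1.45 to 3.798), and *Fkbp11* at 2.12 and 0.94 (90 and 31 reads, 2.27-fold lower, 1.49 to 3.53). With pseudocount 1 or a filter of 10 the calls of *Cdnf* and *Fkbp11* were lost. Of 29 other degradation genes none was called, and the median was 0.10 as deposited and -0.17 at equal totals. Their largest ratios were those of *March6*, a ubiquitin ligase of the ER membrane, at 125 and 223 (1.78, 1.72 to 1.85), *Rnf5*, another such ligase (1.6, 1.51 to 1.69), and *Ngly1*, which removes sugars from retrieved proteins (1.54, 1.45 to 1.64). Over 30 genes of translocation and signal peptide processing the median was -0.12, and 1 was called lower (3.33%, against 10.5% of all genes tested). *Spcs3*, of the signal peptidase, was called lower, at 156 and 68.5 (2.27-fold lower, 2.17 to 2.38), while *Sec62*, of the translocation channel, stood at 199 and 324 (1.62, 1.58 to 1.67) and *Sec11c* at 28.2 and 21.4 (0.760, 0.692 to 0.835).

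**Figure D4:**
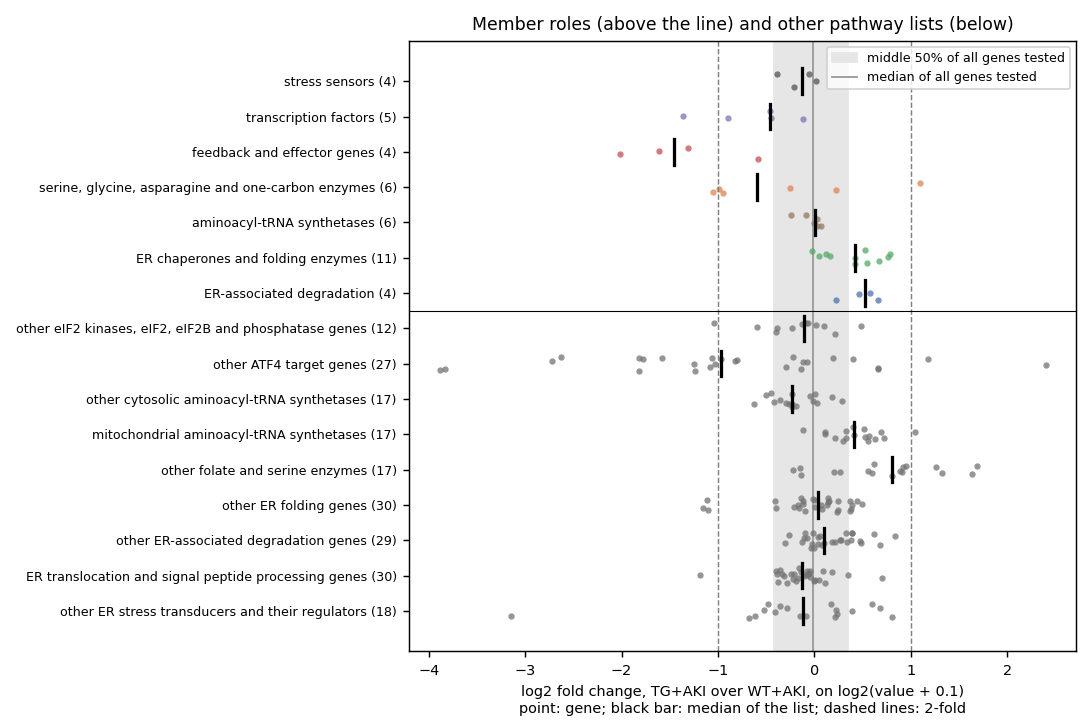
Log2 fold changes of TG+AKI over WT+AKI for the 7 roles of the members (above the line) and the 9 further pathway lists (below), 1 point per gene past the filter, with a black bar at each median, the middle 50% of all genes tested shaded and dashed lines at 2-fold. Medians ran from -1.46 for the feedback and effector genes to 0.81 for the other folate and serine enzymes as deposited, and at equal totals those of the synthetases, the other folding genes and the other degradation genes turned negative.

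Across the 4 scalings the members shifted together. Of the 40 genes 20 were above 0 as deposited and 11 at equal totals. Signs changed for 9 members at equal totals, for 6 at a median ratio of 1 and for 1, *Sars*, with DESeq2 size factors. None of the 6 called genes was among those that changed sign.

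**Figure D5:**
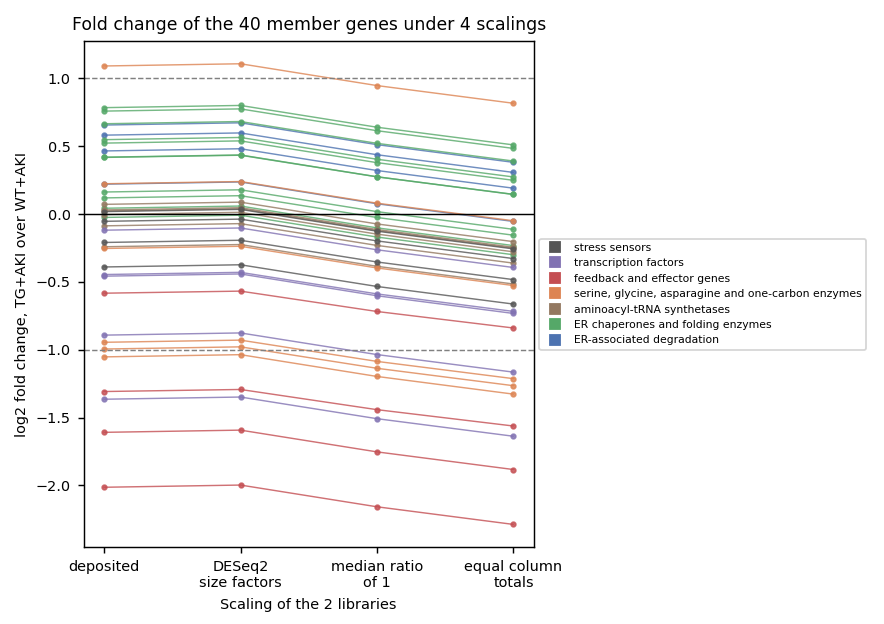
Log2 fold change of each of the 40 members under the deposited scaling, DESeq2 size factors, a median ratio of 1 (computed on genes with a level of 100 or more in each library) and equal column totals, with dashed lines at 2-fold. All lines shift together, and *Shmt2* passed the upper line under the first 2 scalings but lay at 0.82 at equal totals.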

How the data were processed

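Messenger RNA of whole kidney was measured in 2 libraries (TruSeq Stranded mRNA kit, NovaSeq), 1 per group, grouped by library name. Per the submitters' processing notes and the study's methods, the authors aligned reads with STAR 2.7.3a to mm10, counted with HTSeq and normalized with DESeq2. The tool edgeR is also listed, and the gene annotation and the use of strand are not given in the sources used here. The deposited table holds a normalized signal per gene. All 19829 genes listed had at least 1 read in each library, so genes with 0 reads in a library are in no share or count here. Every value was a whole multiple of 1 read (100% within 0.01 of a read), and TMM factors of 1.10 and 0.909 computed with edgeR 4.0.16 from the recovered reads gave the deposited scale, so 1 unit is 1 read in 1000000 of a library whose size was adjusted by TMM.

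Genes reaching a value of 1 in either library were tested, and a difference of 2-fold on log2(value + 0.1) was called. With 1 library per group no p-value for the conditions was computed. An exact binomial test on the reads, with Benjamini-Hochberg adjustment, compares the libraries only and passed 0.05 for 10895 of 14997 genes (72.6%). Intervals and floors cover counting error only, and the floor of 3 reads was 0.0708 and 0.0906. Intervals of ratios within a library are Wald intervals on the log scale. Procedures were tested on simulated data with counting error only, which does not cover differences between animals. Members and lists were chosen with earlier results of these data known. Named genes are the 40 members, *Inmt*, the 3 largest differences of each pathway list and the markers with the fewest reads; others are marked in the text, and 1 gene of the folate and serine list that was called is not reported here. Member promoters were to be shown for the 2 largest rises and falls with an element; each was cut where the GENCODE gene begins, which left 237 bases of *Chac1* and 250 of *Herpud1*, while the sites of *Hspa5* and *Asns* lie past that point, so these genes are shown by their sites only. GENCODE M21 gave lengths and shared 100-base words. The 7 alternatives of the closing section were tried. Python 3.11.15, numpy 2.4.6, scipy 1.17.1, pandas 2.3.3, matplotlib 3.10.9, R 4.3.3 and DESeq2 1.42.0 were used.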

Additional observations from a re-analysis of the deposited data

How the results depend on the processing

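The 7 alternatives were pseudocount 1, a filter of 10, no filter, equal column totals, a median ratio of 1, DESeq2 size factors and the added exact binomial test. Higher and lower calls over all genes were 1053 and 1578, and they were 625 and 784 with a filter of 10, and 687 higher with equal column totals. Members called higher and lower were 1 and 5, and 0 and 8 both at equal totals and at a median ratio of 1. Other pathway genes called higher moved from 7 to 4 at equal totals, and those called lower from 19 to 12 with a filter of 10. The median log2 fold change of the members was 0.01, and it was 0.027 with a filter of 10, -0.27 at equal totals, -0.14 at a median ratio of 1 and 0.024 with DESeq2 size factors. With a filter of 10, 36 members were tested and *Chac1*, below that level, was not called. Role medians under these settings were added after seeing the data and kept their sign, except that of the synthetases, which was below 0 at equal totals (-0.26) and at a median ratio of 1 (-0.13). That of the metabolic enzymes went from -0.60 to -0.02 with a filter of 10, which leaves fewer genes. Counting 3 reads as the floor, every member lay above it in both libraries. No paired analysis was possible because each group holds 1 library. Leaving out a library would leave no comparison.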
